A study of Homo sapiens with 6 samples.

Results

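The antiviral interferon-stimulated genes are a set of 44 human genes, picked by symbol from the 36601 genes of the count table, that code for sensors and effectors of antiviral defence. RNA-seq was performed on NK-92, a line of human natural killer (NK) cells that came from a lymphoma and depends on IL-2. The shCtrl group carried a control shRNA and the shmiR155HG group carried an shRNA against miR155HG, the host transcript of the microRNA miR-155. Both groups, with 3 libraries each, received IL-2 at 1000 U/mL together with IL-12 at 10 ng/mL for 12 h before RNA extraction. The study used stable knockdown lines, and the labels do not say whether the libraries of a group came from separate cultures, so p-values measure only the spread between these libraries. There was no group without cytokines and no interferon treatment. The comparison asks which transcripts differ between knockdown and control lines in cytokine-stimulated cells. Dependence on miR155HG cannot be told apart from other effects of the shRNA or from differences between the lines.

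Interferons bind receptors that signal through the kinases JAK1, JAK2 and TYK2. Type I and type III interferons assemble the complex ISGF3, which holds STAT2 and IRF9 and binds interferon-stimulated response elements (ISRE), while IFN-γ acts through gamma-activated sites (GAS). The genes switched on in this way sense viral RNA, cut or edit it, block its translation, hold virions at membranes and modify proteins with ISG15. Activated NK cells are a main source of IFN-γ and also express interferon-stimulated genes themselves.

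The library totals lay between 33454786 and 39157264 counts. Of all genes, 12263 passed 1 CPM (counts scaled by library total) in at least 2 libraries and were tested. The counts of MIR155HG, the targeted gene, were 73, 67 and 62 in shCtrl and 28, 19 and 10 in shmiR155HG replicates 1 to 3. The groups did not overlap, and MIR155HG was left at 29.2% of the shCtrl level (log2 fold change -1.78, SE 0.43, adjusted p = 0.00450). Of the 9 NK-92 markers examined, 8 passed the filter and CD7 did not. Their summed level was 3958 to 3970 CPM in shCtrl and 3513 to 3640 CPM in shmiR155HG libraries. Among them GZMB fell from 1195 ± 42.5 to 543 ± 29.9 CPM and PRF1 from 328 ± 11.0 to 286 ± 10.3 CPM (SD, n = 3), IL2RB rose from 1006 ± 44.9 to 1269.8 ± 17.8 CPM, and the other 5 were not called. Markers of B cells (at most 1.13 CPM in sum) and erythroid cells (at most 0.154 CPM) were near 0, and LILRA4 and CLEC4C, markers of plasmacytoid dendritic cells, were at 0 in every library. The T cell list summed to 71.1 to 75.7 CPM in shCtrl and 68.8 to 78.9 CPM in shmiR155HG libraries, nearly all of it TRAC, and CD3D, CD3G, CD4 and CD8A did not pass the filter. The myeloid list summed to 12.6 to 14.0 against 8.55 to 13.1 CPM, all of its tested part being CSF1R and CD68 (adjusted p = 0.235 and 0.205). Both of these leaned lower in shmiR155HG. CD14, which did not pass the filter, went the other way, with 7, 2 and 0 counts in shCtrl and 10, 23 and 17 in shmiR155HG replicates 1, 2 and 3. The part of these differences in the results below was not tested.

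More interferon-stimulated genes fell than rose in shmiR155HG cells. Of the 40 that passed the filter, 13 fell: the GTPase MX1, the RNA-dependent synthases OAS1 and OAS2, the kinase EIF2AK2, the sensor IFIH1, the membrane proteins BST2, PLSCR1 and IFITM1, the ISG15 protease USP18, the partners PARP9 and DTX3L, and IFI6 and XAF1. IFIT3 and RSAD2 rose, and 25 were not called. Across all genes tested, edgeR's quasi-likelihood test called 8.02% lower and 7.26% higher. The 3 shCtrl and 3 shmiR155HG libraries did not overlap for 16 of these genes in the lower direction and 5 in the higher, where 15.6% and 15.2% of all genes tested did so. The log2 fold changes of the 40 genes ran from -1.08 to 0.45 with a median of -0.10, beside a median of 0.000966 over all genes tested, and 28 were negative. The changes were small next to that of MIR155HG, and MX1 alone fell to less than a factor of 0.5. In bulk RNA, fewer cells that express a gene and less RNA per cell cannot be told apart.

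The 4 genes that did not pass the filter were OAS3, MX2, TRIM22 and IFI44L. MX2, the paralog of MX1, was listed at 0 in all 6 libraries, and OAS3 had 0, 0 and 0 counts in shCtrl and 7, 0 and 6 counts in shmiR155HG replicates 1, 2 and 3. TRIM22 had 16, 27 and 37 counts in shCtrl and 40, 12 and 23 in shmiR155HG. IFI44L had 3, 15 and 6 counts in shCtrl and 5, 5 and 4 in shmiR155HG. A listed 0 can also come from how reads were assigned to genes, so it does not show that MX2 was silent. Of their neighbours, MX1 and OAS2 were well above the filter, and OAS1 and IFI44 were close to it.

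**Figure D1:**
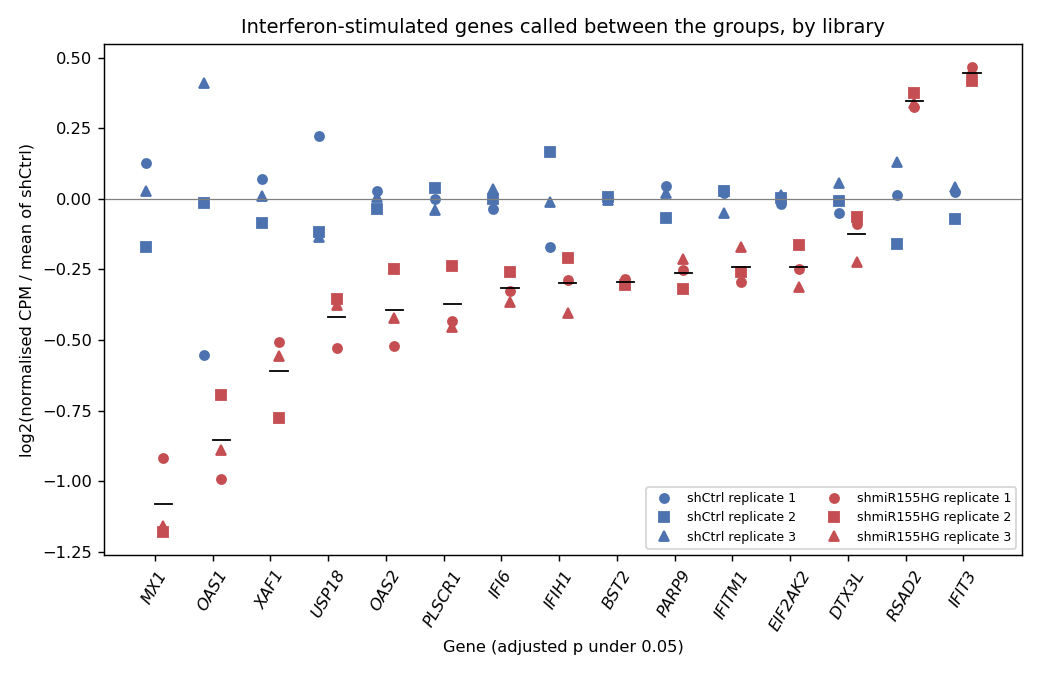
Level of each of the 15 interferon-stimulated genes called between the groups, as log2 of the normalised CPM of a library over the shCtrl mean (vertical axis), with blue shCtrl and red shmiR155HG libraries (circle, square and triangle for replicates 1, 2 and 3) and a black bar at the mean of the shmiR155HG values. For the 13 genes that fell, from MX1 to DTX3L, no red point reached a blue one, and for RSAD2 and IFIT3 every red point was above the blue ones.

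Most of the promoters examined held a sequence like the ISRE, which was not itself used to pick the genes. The genes were picked as interferon-stimulated, and ISGF3 acts through ISRE. A higher share than over all genes is thus no independent result. RefSeq promoter windows (GRCh38.p14, 250 bases before to 50 bases after a transcript start) were at hand for 35 of the 44 genes. An ISRE-type match, GAAANNGAAA on either strand (TTTCNNTTTC when read on the other one), was found in 24 of the 35 genes (68.6%), against 4.38% of all 27305 genes with a window and 4.38% of the 9138 of those that were tested. The 24 genes held 44 matches, of which 43 began within 200 bases before a start, with a median of -93.5 bases. A GAS-type match, TTCNNNGAA, which reads the same on both strands, was found in 10 of the 35 genes (28.6%), against 9.38% of all genes and 8.43% of tested genes. Of the 11 distinct GAS-type matches, 5 shared bases with an ISRE-type match. No promoter sequence was used for DHX58, IFIT2, OAS2, OASL, IFITM2, LY6E, MX2, USP18 and TRIM22.

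One ISRE-type match of each gene called between the groups that had one is printed with 10 bases on either side, since these genes carry the comparison. ISG15, which was not called, is added for comparison. Sequences (GRCh38.p14) run 5′ to 3′ on the strand of the gene, with the match in capitals.
MX1, chr21:41420559-41420588, plus strand: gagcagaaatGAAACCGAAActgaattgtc
IFIH1, chr2:162318686-162318715, minus strand: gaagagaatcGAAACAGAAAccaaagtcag
EIF2AK2, chr2:37156967-37156996, minus strand: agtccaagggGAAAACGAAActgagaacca
PLSCR1, chr3:146544667-146544696, minus strand: cgggaaccggGAAAAGGAAAccgtgttgtg
BST2, chr19:17405741-17405770, minus strand: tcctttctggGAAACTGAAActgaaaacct
IFITM1, chr11:314024-314053, plus strand: acacttctgaGAAACTGAAAcgacagggga
IFI6, chr1:27672288-27672317, minus strand: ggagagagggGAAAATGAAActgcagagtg
DTX3L, chr3:122564322-122564351, plus strand: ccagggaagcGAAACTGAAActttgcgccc
PARP9, chr3:122564322-122564351, minus strand: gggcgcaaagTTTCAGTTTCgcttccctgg
IFIT3, chr10:89327865-89327894, plus strand: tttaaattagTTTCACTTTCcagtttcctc
RSAD2, chr2:6877622-6877651, plus strand: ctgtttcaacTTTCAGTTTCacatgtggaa
ISG15, chr1:1013380-1013409, plus strand: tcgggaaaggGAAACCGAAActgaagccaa

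Genes that fell and genes that rose both carried the ISRE-type letters. PARP9 and DTX3L, which are transcribed away from each other, share 1 match. IFIT3 and RSAD2, the genes that rose, hold theirs as TTTCNNTTTC, and so did PARP9, IFIH1 and MX1, which fell, the last 2 beside a match in the other orientation. Of the 22 tested genes with an ISRE-type match, 9 fell and 2 rose, with a median log2 fold change of -0.20. Of the 11 tested genes with a window and no such match, OAS1 and XAF1 fell and none rose, with a median of -0.07. Of the 10 tested genes with a GAS-type match, 5 fell and none rose (median -0.20), and of the 23 without one, 6 fell and 2 rose (median -0.08). Of the genes with a GAS-type match that fell, all but OAS1 also held an ISRE-type match, so these splits are not independent. Over all genes tested, 8.02% were called lower and 7.26% higher. The counts differ between these classes, and the difference was not tested. A match is a run of letters, not a measured binding site.

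**Figure D2:**
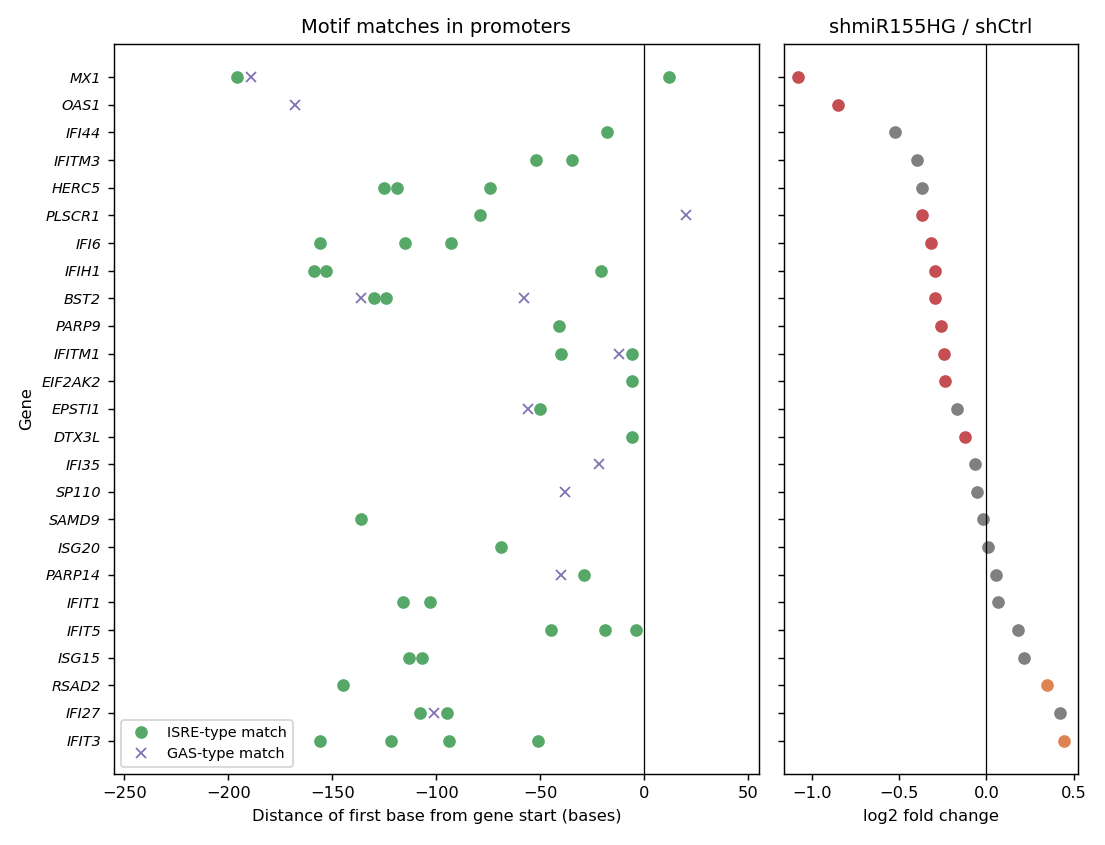
Left, distance in bases from the transcript start of a promoter window (gene start on the axis) to the first base of each match. Green circles are ISRE-type and purple crosses GAS-type matches, for the 25 tested interferon-stimulated genes with a match. Right, log2 fold change of the same genes, red for those that fell, orange for those that rose and grey for those not called. ISRE-type matches of genes that fell, rose and were not called lay in the same stretch, within 200 bases before a transcript start, apart from 1 match of MX1 after it.

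The sensors of viral RNA in the cytosol are the helicases DDX58 (RIG-I), IFIH1 (MDA5) and DHX58 (LGP2). IFIH1, which binds long double-stranded RNA, stood at 32.7, 41.3 and 36.6 CPM in shCtrl replicates 1, 2 and 3 and at 30.2, 31.9 and 27.9 CPM in shmiR155HG replicates 1, 2 and 3. The groups came close to each other but did not overlap. The mean fell from 36.9 ± 4.31 to 30.02 ± 2.02 CPM (log2 fold change -0.30, SE 0.09, adjusted p = 0.0211). That call was lost without shCtrl replicate 2 (-0.21, adjusted p = 0.192), without shmiR155HG replicate 1 (-0.30, adjusted p = 0.0617) and without shmiR155HG replicate 3 (-0.25, adjusted p = 0.122). DDX58, the sensor of RNA with a triphosphate end, was not called (22.1 ± 1.92 against 21.5 ± 0.948 CPM, log2 fold change -0.04, adjusted p = 0.844). DHX58, a regulator of the other two, was at 3.86 to 4.61 CPM in shCtrl and 4.72 to 5.57 CPM in shmiR155HG libraries, without overlap and without a call (log2 fold change 0.32, adjusted p = 0.343).

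Effectors that act on RNA moved in both directions. The OAS proteins make 2′-5′-linked oligoadenylates that activate RNase L, and their genes lie side by side on chromosome 12. OAS2 stood at 58.6, 56.1 and 57.7 CPM in shCtrl and at 40.0, 48.4 and 42.9 CPM in shmiR155HG replicates 1, 2 and 3. No shmiR155HG library reached the lowest shCtrl library. OAS2 fell from 57.5 ± 1.27 to 43.8 ± 4.23 CPM (log2 fold change -0.39, SE 0.07, adjusted p = 0.000280). OAS1 stood at 2.75, 4.003 and 5.36 CPM in shCtrl and at 2.03, 2.50 and 2.18 CPM in shmiR155HG libraries. The shCtrl libraries were far more spread than the shmiR155HG libraries, with replicate 1 nearest to them. The test called OAS1 lower (log2 fold change -0.85, SE 0.28, adjusted p = 0.0396). The call did not survive the loss of shCtrl replicate 2 (-0.86, adjusted p = 0.0975) or 3 (-0.59, adjusted p = 0.246), or of shmiR155HG replicate 1 (-0.79, adjusted p = 0.119), 2 (-0.94, adjusted p = 0.0701) or 3 (-0.83, adjusted p = 0.108). It was also lost with the replicate number as a block (-0.81, adjusted p = 0.0625) and with limma-voom (-0.80, adjusted p = 0.0768). OASL, a relative on the same chromosome that lacks the synthase activity, was not called (46.1 ± 4.86 against 42.7 ± 1.88 CPM, log2 fold change -0.11, adjusted p = 0.370).

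EIF2AK2 codes for PKR, the kinase that stops translation through eIF2α once it binds double-stranded RNA. It stood at 172.8, 175 and 176 CPM in shCtrl and at 147, 156 and 141 CPM in shmiR155HG replicates 1, 2 and 3. The shCtrl libraries were close together and all above the shmiR155HG libraries. EIF2AK2 fell from 174.8 ± 1.84 to 148 ± 7.64 CPM (log2 fold change -0.24, SE 0.04, adjusted p = 0.000249). ADAR, the enzyme that edits adenosine to inosine in double-stranded RNA, was 658 ± 9.28 against 649 ± 11.8 CPM and was not called (log2 fold change -0.02, SE 0.03, adjusted p = 0.756). ISG20, a 3′ to 5′ exonuclease, was 15.7 ± 2.09 against 15.8 ± 2.47 CPM (log2 fold change 0.01, adjusted p = 0.981).

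Some of the IFIT proteins bind RNA ends that lack host marks, and the IFIT genes lie next to each other on chromosome 10. IFIT3 (ENSG00000119917, hg38 chr10:89327307-89377473, plus strand, 2 exons) stood at 37.3, 34.9 and 37.8 CPM in shCtrl and at 50.6, 48.9 and 50.2 CPM in shmiR155HG replicates 1, 2 and 3. Every shmiR155HG library was above every shCtrl library, and the replicates of each group were close. IFIT3 rose from 36.7 ± 1.56 to 49.9 ± 0.882 CPM (log2 fold change 0.45, SE 0.07, adjusted p = 4.08e-05), the largest rise among the 40 genes tested. Its neighbours were not called: IFIT2 was 24.5 ± 3.14 against 24.4 ± 2.98 CPM (log2 fold change -0.0017, adjusted p = 0.995), IFIT1 had a log2 fold change of 0.07 (adjusted p = 0.840) and IFIT5 of 0.18 (adjusted p = 0.449). Whether IFIT3 differed from its neighbours was not tested. Exons of IFIT3 and of LIPA overlap by 94 bases on opposite strands, and the sources used here do not state whether the counting used strand.

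Proteins that act at membranes included some of the most abundant members. BST2, or tetherin, holds new virions on the cell surface. It stood at 169, 169.8 and 169 CPM in shCtrl and at 139, 137 and 138 CPM in shmiR155HG replicates 1, 2 and 3. Within each group the libraries were almost equal, and the groups were far apart for that spread. BST2 fell from 169 ± 0.557 to 138 ± 1.14 CPM (log2 fold change -0.30, SE 0.04, adjusted p = 5.94e-06), the smallest adjusted p among the members. PLSCR1, a phospholipid scramblase, stood at 72.9, 74.9 and 71.0 CPM in shCtrl and at 54.0, 61.8 and 53.2 CPM in shmiR155HG libraries. PLSCR1 fell from 72.9 ± 1.96 to 56.4 ± 4.77 CPM (log2 fold change -0.37, SE 0.07, adjusted p = 0.000191), with shmiR155HG replicate 2 nearest to the shCtrl libraries.

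The IFITM proteins block the fusion of viral with cellular membranes, and 3 of their genes lie together on chromosome 11. IFITM1 stood at 69.6, 69.9 and 66.2 CPM in shCtrl and at 56.0, 57.2 and 61.0 CPM in shmiR155HG replicates 1, 2 and 3. All shmiR155HG libraries were lower. IFITM1 fell from 68.6 ± 2.05 to 58.1 ± 2.59 CPM (log2 fold change -0.24, SE 0.06, adjusted p = 0.00794). IFITM2 was 3.26, 5.54 and 3.52 CPM in shCtrl and 1.46, 2.78 and 2.72 CPM in shmiR155HG libraries, without overlap but without a call (log2 fold change -0.82, SE 0.29, adjusted p = 0.0588). IFITM3 was under or about 1 CPM in every library and overlapped (log2 fold change -0.39, adjusted p = 0.669). These 3 genes are near-identical copies in part, so their reads can be shared between them. LY6E, a lipid-anchored surface protein, was 196, 196 and 201 CPM in shCtrl and 202, 224 and 192 CPM in shmiR155HG libraries. LY6E overlapped between the groups and was not called (log2 fold change 0.06, SE 0.05, adjusted p = 0.441).

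Per length of transcript, LY6E, BST2 and IFITM1 were the most abundant members in shCtrl cells. Dividing CPM by the length of the canonical transcript in kb gave 174.9 ± 2.50 in shCtrl and 182 ± 14.5 in shmiR155HG for LY6E, 169 ± 0.556 and 137.7 ± 1.14 for BST2, and 102.6 ± 3.07 and 86.9 ± 3.88 for IFITM1. In shCtrl, ADAR came next, with levels of 99.5 ± 1.40 and 98.2 ± 1.79 CPM per kb, a level that in shCtrl differed from that of IFITM1 by less than the combined SD, while in shmiR155HG cells ADAR was above IFITM1. IFI6 followed at 75.5 ± 1.90 and 60.6 ± 2.32, and ISG15 at 46.7 ± 2.41 and 54.1 ± 1.42 CPM per kb. MX1, which fell most, was low in both groups, at 4.11 ± 0.424 and 1.95 ± 0.202 CPM per kb. The lowest member tested was IFI44, at 0.803 ± 0.619 and 0.558 ± 0.171 CPM per kb.

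**Figure D3:**
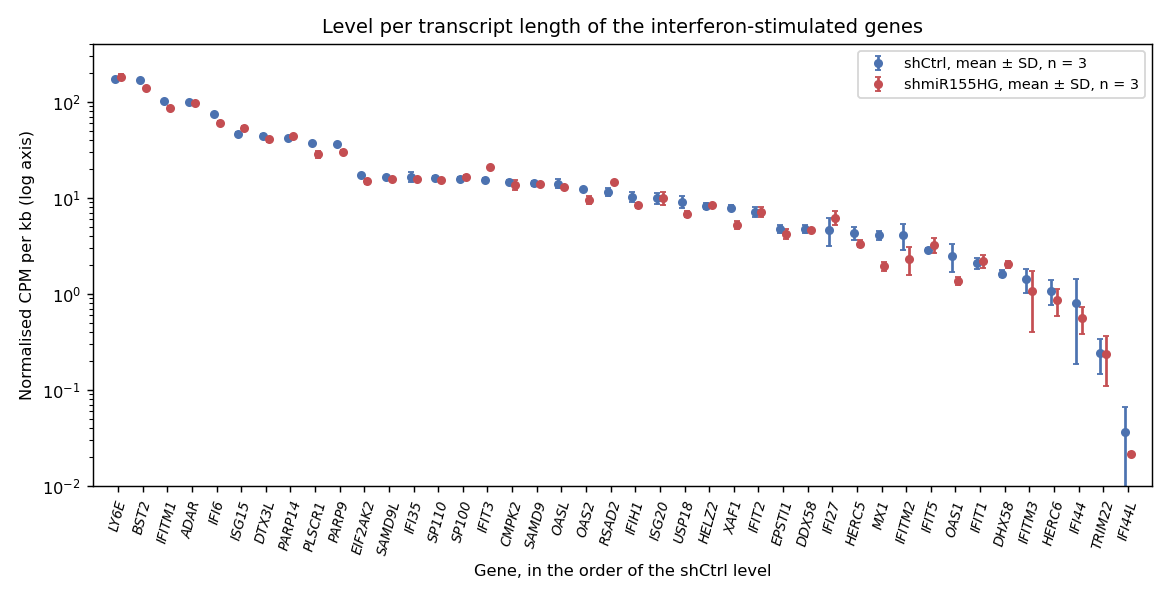
Normalised CPM per kb of canonical transcript (log axis) of the 42 interferon-stimulated genes with a count in shCtrl, in the order of the shCtrl level, as mean ± SD of 3 libraries (blue shCtrl, red shmiR155HG). Levels span from 174.9 CPM per kb for LY6E to 0.0367 for IFI44L in shCtrl, and the lower bar of IFI44L runs off the axis.

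Among the large GTPases and enzymes, MX1 and RSAD2 moved in opposite directions. MX1 (ENSG00000157601, hg38 chr21:41420020-41470071, plus strand, 17 exons) codes for a dynamin-like GTPase that traps incoming viral ribonucleoproteins. It stood at 12.5, 10.1 and 11.7 CPM in shCtrl and at 6.05, 5.04 and 5.11 CPM in shmiR155HG replicates 1, 2 and 3. The highest shmiR155HG library was well below the lowest shCtrl library. MX1 fell from 11.4 ± 1.18 to 5.40 ± 0.559 CPM, or 47.3% of the shCtrl level (log2 fold change -1.08, SE 0.16, adjusted p = 2.07e-05), the largest fall among the 40 genes. The antisense neighbours that overlap its exons, among them TMPRSS2, had no counts in any library.

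RSAD2 codes for viperin, a radical SAM enzyme that makes a chain-terminating nucleotide. It stood at 39.5, 35.1 and 42.9 CPM in shCtrl and at 49.0, 50.9 and 49.6 CPM in shmiR155HG libraries. All shmiR155HG libraries were above all shCtrl libraries. RSAD2 rose from 39.2 ± 3.93 to 49.8 ± 0.932 CPM (log2 fold change 0.35, SE 0.07, adjusted p = 0.00169). CMPK2, a mitochondrial nucleotide kinase transcribed from the opposite strand beside RSAD2, was 45.3 ± 2.13 against 42.4 ± 5.11 CPM and was not called (log2 fold change -0.10, adjusted p = 0.484). Exons of RSAD2 and CMPK2 overlap by 351 bases, with 9968 and 9823 counts in all 6 libraries, so part of the reads may be shared. The neighbours SAMD9 and SAMD9L, which restrict poxviruses, were not called (log2 fold change -0.02 and -0.08, adjusted p = 0.876 and 0.324), and SAMD9L, at 116 to 123 CPM in shCtrl and 111 to 116 CPM in shmiR155HG libraries, did not overlap.

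ISG15 is a ubiquitin-like protein that HERC5 attaches to new proteins and USP18 removes. In addition, USP18 dampens signalling from the type I interferon receptor. USP18 stood at 19.8, 15.7 and 15.5 CPM in shCtrl and at 11.8, 13.3 and 13.1 CPM in shmiR155HG replicates 1, 2 and 3. The groups were separate, with shCtrl replicate 1 apart from the other two shCtrl libraries. USP18 fell from 17.0 ± 2.44 to 12.7 ± 0.808 CPM (log2 fold change -0.42, SE 0.13, adjusted p = 0.0239). Without shCtrl replicate 1 the value was -0.29 and the call was lost (adjusted p = 0.195), as it was without shmiR155HG replicate 1 (-0.37, adjusted p = 0.104), 2 (-0.45, adjusted p = 0.0537) or 3 (-0.44, adjusted p = 0.0557). ISG15 itself had 31.4, 28.5 and 29.2 CPM in shCtrl and 34.0, 35.5 and 33.8 CPM in shmiR155HG libraries. Its groups did not overlap, with shmiR155HG higher, but the gene was not called (log2 fold change 0.21, SE 0.08, adjusted p = 0.0768). HERC5 had 17.6, 13.4 and 14.4 CPM in shCtrl and 12.8, 11.5 and 10.8 CPM in shmiR155HG libraries, with no overlap and no call (log2 fold change -0.37, SE 0.13, adjusted p = 0.0601). HERC6, its neighbour on chromosome 4, overlapped (log2 fold change -0.32, adjusted p = 0.4998).

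PARP9 and DTX3L form a complex that combines ADP-ribosylation with ubiquitin ligation, and the 2 genes start next to each other on chromosome 3. PARP9 stood at 113, 104.5 and 111 CPM in shCtrl and at 92.1, 87.8 and 94.6 CPM in shmiR155HG replicates 1, 2 and 3. All shmiR155HG libraries were lower. PARP9 fell from 109.6 ± 4.55 to 91.5 ± 3.41 CPM (log2 fold change -0.26, SE 0.05, adjusted p = 0.000736). DTX3L stood at 247, 254 and 266 CPM in shCtrl and at 240.5, 245 and 219 CPM in shmiR155HG libraries. The highest shmiR155HG library almost reached the lowest shCtrl library. DTX3L was called lower only barely (log2 fold change -0.12, SE 0.04, adjusted p = 0.0489), and it lost the call in 12 of 14 alternative settings, among them without shCtrl replicate 2 (-0.13, adjusted p = 0.118) or 3 (-0.09, adjusted p = 0.173) and without shmiR155HG replicate 1 (-0.14, adjusted p = 0.0728), 2 (-0.15, adjusted p = 0.0528) or 3 (-0.07, adjusted p = 0.334). Exons of the pair overlap by 139 bases on opposite strands. PARP14, a mono-ADP-ribosyltransferase further along the same chromosome, was 319 to 329 CPM in shCtrl and 334 to 339 CPM in shmiR155HG libraries, without overlap and without a call (log2 fold change 0.05, adjusted p = 0.316). The nuclear body proteins SP100 and SP110 and the helicase HELZ2 overlapped and were not called (log2 fold change 0.07, -0.05 and 0.02, adjusted p = 0.446, 0.586 and 0.846).

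Of the remaining genes, XAF1 and IFI6 fell. XAF1, which binds the apoptosis inhibitor XIAP, stood at 28.5, 25.5 and 27.3 CPM in shCtrl and at 19.1, 15.8 and 18.4 CPM in shmiR155HG replicates 1, 2 and 3. No shmiR155HG library came near the shCtrl range. XAF1 fell from 27.1 ± 1.49 to 17.8 ± 1.71 CPM (log2 fold change -0.61, SE 0.10, adjusted p = 9.14e-05). IFI6, a small membrane protein that limits apoptosis, stood at 59.8, 61.2 and 62.8 CPM in shCtrl and at 48.9, 51.3 and 47.5 CPM in shmiR155HG libraries. IFI6 fell from 61.3 ± 1.54 to 49.2 ± 1.88 CPM (log2 fold change -0.32, SE 0.06, adjusted p = 0.000914), again without overlap. IFI27, IFI35, IFI44 and EPSTI1 overlapped and were not called, with log2 fold changes of 0.42, -0.07, -0.52 and -0.17 (adjusted p = 0.306, 0.754, 0.603 and 0.433). IFI44, at 0.231 to 2.29 CPM in shCtrl and 0.631 to 1.199 CPM in shmiR155HG libraries, had the widest error of the 40 genes (SE 0.55).

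**Figure D4:**
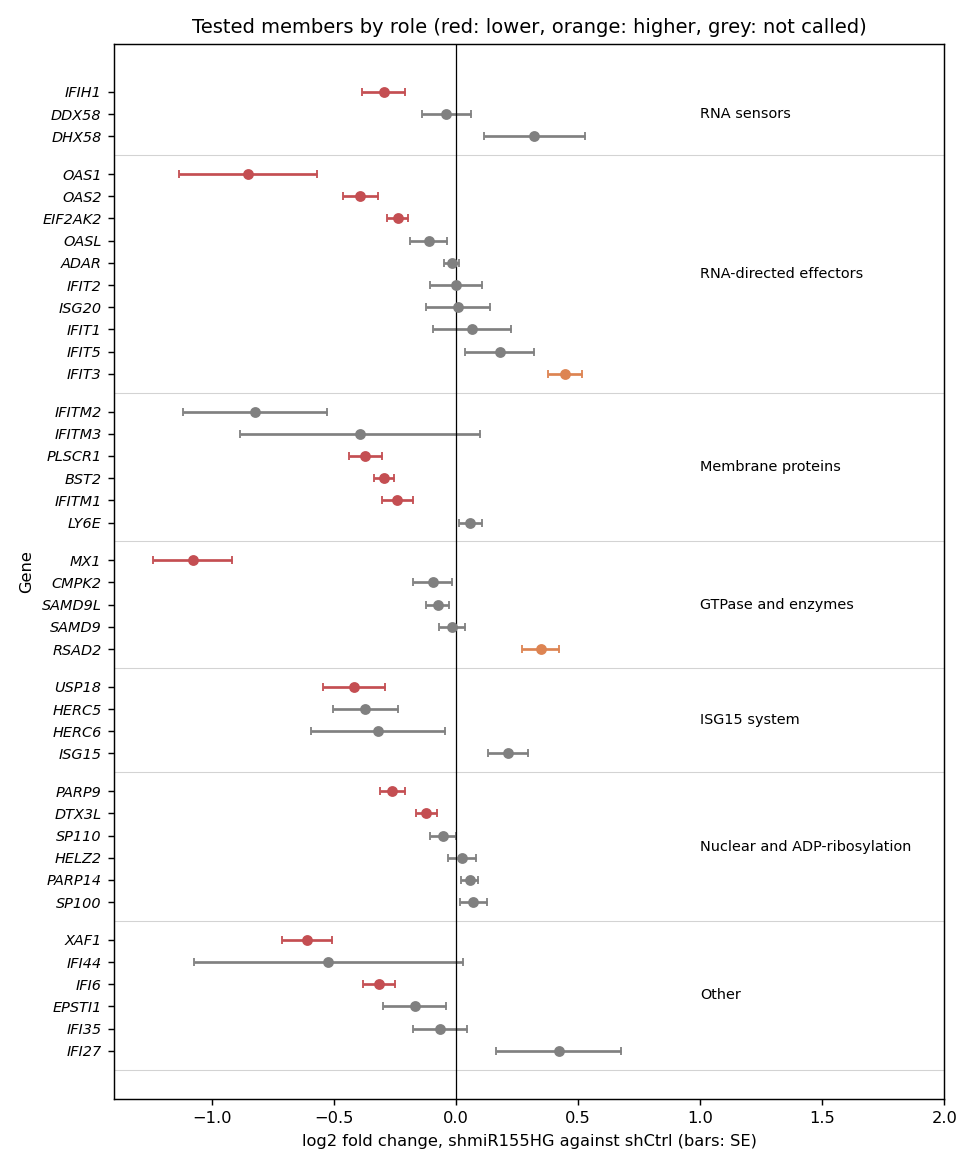
Log2 fold change (shmiR155HG against shCtrl) with its SE for the 40 tested interferon-stimulated genes, grouped by role; red points fell, orange points rose and grey points were not called. Falls ran from -1.08 for MX1 to -0.12 for DTX3L and appeared in every role, while the 2 rises were IFIT3 (0.45) among the RNA-directed effectors and RSAD2 (0.35) among the enzymes.

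By role, 1 of 3 sensors, 3 of 10 RNA-directed effectors, 3 of 6 membrane proteins, 1 of 5 GTPases and enzymes, 1 of 4 genes of the ISG15 system, 2 of 6 nuclear proteins and 2 of 6 others fell. The medians of the log2 fold change were -0.04, -0.01, -0.33, -0.08, -0.34, -0.01 and -0.24 in that order. Over all genes tested, 8.02% were called lower. The differences between roles were not tested, and the groups are small.

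Summed over all 44 genes, the level was 3048, 3058 and 3119 CPM in shCtrl and 2901, 2988 and 2874 CPM in shmiR155HG replicates 1, 2 and 3. The sum of the 13 genes called lower was 1059 to 1076 CPM in shCtrl and 863 to 913 CPM in shmiR155HG libraries. The sum of IFIT3 and RSAD2 was 70.0 to 80.7 CPM in shCtrl and 99.7 to 99.8 CPM in shmiR155HG libraries. The libraries thus did not overlap in any of the 3 sums, of which the last 2 were fixed by the choice of genes.

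The genes upstream in the interferon pathway were read from a list of 64, of which 39 passed the filter. Of these, 10 fell and 2 rose, where 8.02% and 7.26% of all genes tested did so. Of the 21 interferon genes in the list, IFNG was the only one that passed. Of the other 20, 14 were at 0 in every library and 6 had at most 10 counts in a library, against a level of 3 counts per library (0.0766 to 0.0897 CPM) that a count of 0 allows. IFNG stood at 177, 163 and 166 CPM in shCtrl and at 132, 124 and 125 CPM in shmiR155HG replicates 1, 2 and 3. The groups were well apart, and IFNG fell from 168 ± 7.07 to 127 ± 4.23 CPM (log2 fold change -0.41, SE 0.04, adjusted p = 1.40e-07). IFNGR1, the binding chain of the IFN-γ receptor, fell from 42.6 ± 3.27 to 33.6 ± 2.35 CPM (log2 fold change -0.35, SE 0.08, adjusted p = 0.00307), while IFNGR2 and IFNLR1 were listed at 0 in all libraries. IFNGR2 is widely expressed, and a listed 0 in this table does not show that a gene was silent. The chains of the type I receptor, IFNAR1 and IFNAR2, were not called (log2 fold change -0.12 and -0.08, adjusted p = 0.372 and 0.512).

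STAT2, a subunit of ISGF3, fell. It stood at 21.4, 22.2 and 23.2 CPM in shCtrl and at 18.3, 16.1 and 17.3 CPM in shmiR155HG replicates 1, 2 and 3, without overlap (log2 fold change -0.37, SE 0.10, adjusted p = 0.0138). Without shmiR155HG replicate 2 it was -0.33 with an adjusted p of 0.0754. IRF9, the DNA-binding subunit, was 20.8 ± 0.801 against 18.4 ± 1.89 CPM and overlapped (log2 fold change -0.18, SE 0.11, adjusted p = 0.305). IRF7, the amplifier of type I interferon genes and itself interferon-stimulated, was not called (log2 fold change 0.12, adjusted p = 0.668).

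Other pathway genes that fell were IRF8, a factor of the same family (log2 fold change -0.37, adjusted p = 7.11e-07), the kinase IKBKE (-0.29, adjusted p = 0.0248), the phosphatase PTPN1 that acts on JAK kinases (-0.21, adjusted p = 0.00211) and IRF3 (-0.20, adjusted p = 0.0359). IRF8 was 163 ± 0.634 CPM in shCtrl and 125.8 ± 6.05 CPM in shmiR155HG cells. IKBKE lost its call without shCtrl replicate 1 (adjusted p = 0.0910) or 3 (0.0712) and without shmiR155HG replicate 1 (0.0666), 2 (0.0574) or 3 (0.0700). IRF3 lost its call without shCtrl replicate 1 (adjusted p = 0.118) or 2 (0.0986) and without shmiR155HG replicate 1 (0.0626), 2 (0.101) or 3 (0.0957). IFI16 and TYK2 also fell, and TYK2 lost its call without shCtrl replicate 1 (adjusted p = 0.0853) or 3 (0.0620) and without shmiR155HG replicate 2 (0.0849) or 3 (0.0927). The 2 genes that rose, named here after their values were seen, were IRF1 (log2 fold change 0.11, adjusted p = 0.0258) and TRAF3 (0.15, adjusted p = 0.0168). Neither was called without shCtrl replicate 1 (adjusted p = 0.104 and 0.0953) or without shmiR155HG replicate 2 (0.0794 and 0.149). IRF1 lost its call in 7 of the 14 alternative settings, among them without shCtrl replicate 2 (adjusted p = 0.0720) and without shmiR155HG replicate 1 (0.0975) or 3 (0.0533).

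A list of 21 genes known as targets of IFN-γ, of which 17 passed the filter, did not move in one direction. Of the 17 genes, 3 fell and 3 rose, where 8.02% and 7.26% of all genes tested did so. CD274, which codes for PD-L1, fell from 8.84 ± 0.358 to 5.91 ± 1.22 CPM (log2 fold change -0.58, SE 0.18, adjusted p = 0.0248), but not without shCtrl replicate 1 (adjusted p = 0.0667), 2 (0.0551) or 3 (0.0728) or shmiR155HG replicate 1 (0.144). GBP2, a guanylate-binding protein, fell from 66.7 ± 4.499 to 46.7 ± 0.220 CPM (log2 fold change -0.51, SE 0.07, adjusted p = 2.14e-06), and WARS was the other gene that fell. HLA-E, a ligand of NK cell receptors, rose from 312 ± 1.46 to 371 ± 7.11 CPM (log2 fold change 0.25, SE 0.03, adjusted p = 4.91e-06), and TAP1 rose too. NLRC5, the activator of MHC class I genes, rose by the test (log2 fold change 0.19, SE 0.06, adjusted p = 0.0371), but not without shCtrl replicate 1 (adjusted p = 0.124) or 2 (0.179) or shmiR155HG replicate 1 (0.108) or 2 (0.166). The median log2 fold change of the 17 genes was -0.0097, beside -0.08 for the 39 pathway genes and -0.10 for the 40 antiviral genes.

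**Figure D5:**
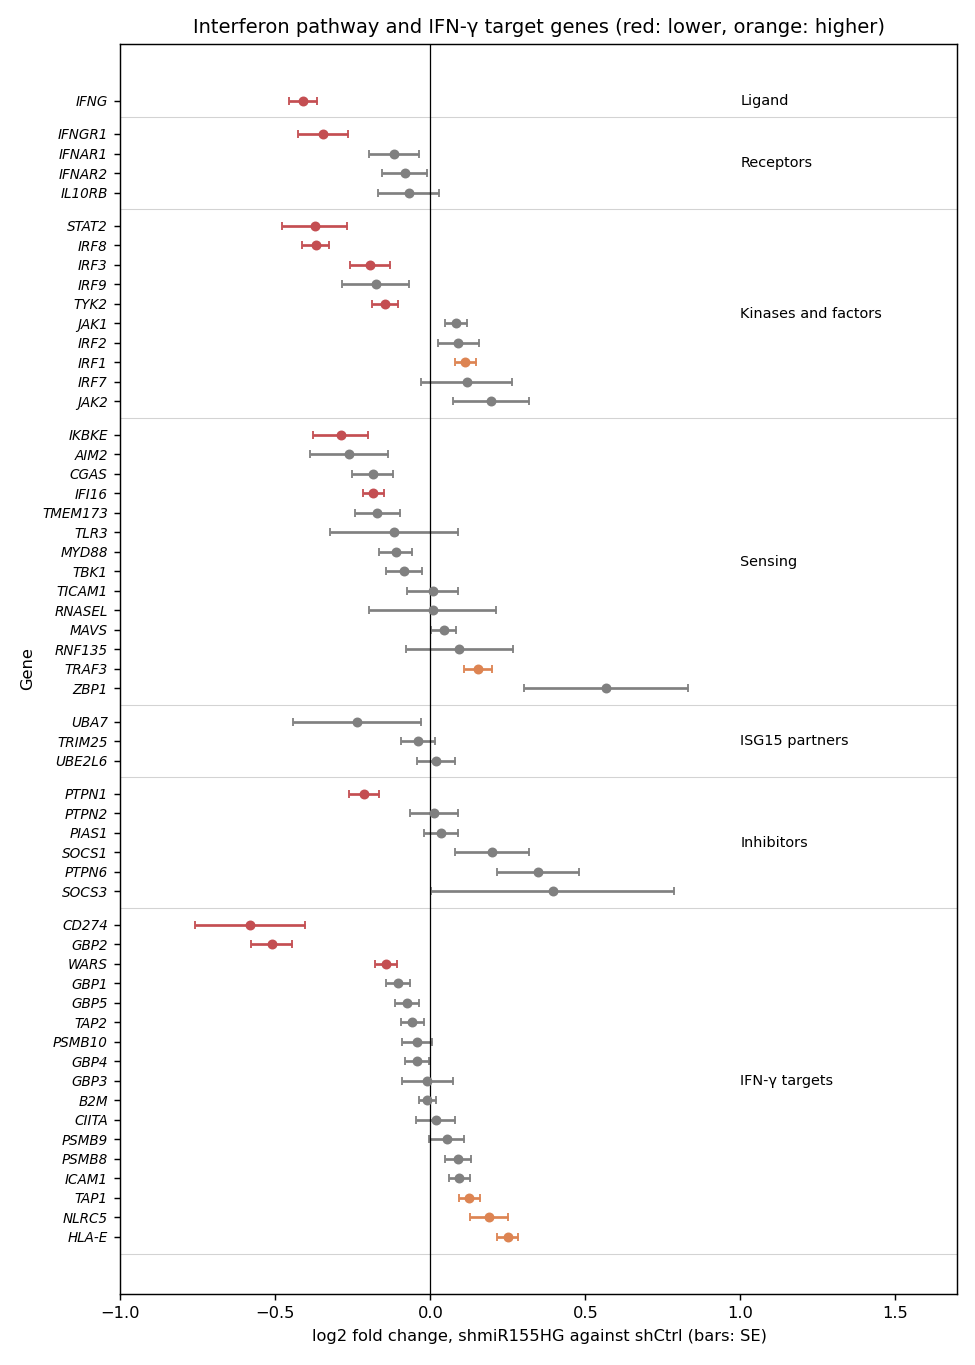
Log2 fold change (shmiR155HG against shCtrl) with its SE for the tested interferon pathway genes reported here, grouped by role, and the 17 tested targets of IFN-γ; red points fell, orange points rose and grey points were not called. IFNG (-0.41), STAT2 (-0.37) and IRF8 (-0.37) lay to the left of 0, whereas the IFN-γ targets lay on both sides, from CD274 (-0.58) to HLA-E (0.25).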

How the data were processed

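The authors deposited raw counts per gene for 6 NK-92 libraries, made after alignment to hg38 with HISAT2 by StringTie on reference transcripts and prepDE.py3, as the methods and the submitters' processing notes state. Tool versions, annotation release, strand use and the read length given to prepDE.py3 are not given in the sources used here, so a count may not equal 1 read, and floors cover counting error only. Groups follow the titles. In the treatment field, 2 of the shmiR155HG libraries name a differently numbered gene.

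Counts were tested in R 4.3.3 with edgeR 4.0.16, using the study's filter (over 1 CPM, 2 libraries or more), TMM scaling, the robust quasi-likelihood test without a block and Benjamini-Hochberg adjustment over 12263 genes (threshold 0.05). Adjusted p-values are from this test unless another setting or a left-out library is named. The test was checked on simulated counts. CPM values are TMM-normalised, SD is over the 3 libraries of a group, and SE belongs to the log2 fold change. A permutation test of 3 against 3 libraries cannot go below 0.1 and was not used. Replicates differed by more than sampling noise (mean chi-square per gene 7.35 to 10.9).

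The 44 genes, the pathway lists and the markers were chosen with earlier results of these data known. The rule named called members, the 3 members highest per length, the 12 largest changes among called pathway and IFN-γ target genes, and STAT2, IRF9, IRF7, IFNAR1, IFNAR2 and IFNG. Other genes were named after their values were seen. A pathway gene and a promoter sequence are not reported here. Positions and transcript lengths were from GENCODE 44 (hg38), which may not be the authors' release, and promoters from RefSeq (GRCh38.p14). Alternatives were DESeq2 size factors, total counts, no filter, filterByExpr, DESeq2 1.42.0, limma-voom (limma 3.58.1), edgeR's exact test with the study's rule (unadjusted P under 0.01, fold change over 1.2), the replicate number as a block, and each library left out.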

Additional observations from a re-analysis of the deposited data

How the results depend on the processing

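Of the 15 interferon-stimulated genes called, 8 (BST2, IFI6, IFIT3, MX1, OAS2, PLSCR1, RSAD2 and XAF1) were called in all 14 alternative settings, and none of the 15 changed sign in any. EIF2AK2, IFITM1 and PARP9 lost the call only under the study's rule, since their fold changes were under 1.2. HERC5 was gained without a filter (adjusted p = 0.0491), and IFITM2 without a filter (0.0282), under the study's rule and with the replicate block (0.0492). The number of members called lower was 13 and lay between 9 and 12 with a library left out and between 10 and 15 in the other settings, and the number called higher was 2 in every setting. The median log2 fold change of the members ran from -0.113 to -0.087 over the alternatives. With the replicate block the counts were 12 lower and 2 higher for members, 11 and 2 for pathway genes. The replicate numbers share no stated culture or day, and deviations of same-numbered libraries correlated at -0.0128, 0.0121 and 0.0197. No pairing by number was seen, but 3 libraries per group cannot show that no culture or day was shared. Under the study's rule, 6 pathway genes were lower and 0 higher, and 0 IFN-γ targets were higher, since that rule asks for a fold change over 1.2. With a library left out, 6 to 9 pathway genes were lower and 0 to 2 higher; the count was 6 lower and 0 higher without shmiR155HG replicate 2, and 0 higher without shCtrl replicate 1. Fewer libraries were fitted there, and any other cause was not tested. Across all genes, the study's rule as run here called 551 higher and 466 lower, against 890 and 984 in the main setting. Both counts under that rule were below those that the paper reports. The paper's calls were thus not reproduced, and the reason was not tested. Without shmiR155HG replicate 2 the all-gene counts were 580 higher and 674 lower, and without shCtrl replicate 1 they were 661 and 745. Without shCtrl replicate 3 they were 891 and 917. Low counts limit OAS1, IFITM2, IFITM3, HERC6, IFI27, IFI44 and DHX58, whose SE was 0.21 or more.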
